A study of Mus musculus with 32 samples.

Results

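The miR-181 family was followed across small RNA libraries of mesenteric arteries, which supply the intestine and help to set vascular resistance. Its members were the table rows whose name, without species prefix, copy number and arm, was miR-181a, miR-181b, miR-181c or miR-181d. These were 12 rows with 10 names, and a repeated name was represented by its highest-mean row. The whole table held 1030 distinct miRNA rows. Of the 10 family names, 6 reached a mean of at least 1 RPM (normalised reads per M, where M is mega, as scaled by the authors) over the 32 libraries and were tested among 543 such rows.

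All arteries came from male wild-type C57BL/6J mice aged 10 to 12 weeks, cleared of veins and perivascular fat. In the Ang II groups, angiotensin II, a peptide hormone that raises blood pressure, was infused subcutaneously over 7 or 14 days at a dose of 1000 ng/kg/min. The controls for each time are labelled sham and received no Ang II. Each of the 4 groups, Ang II or sham at either time, held 8 libraries, each from 1 µg of RNA of a separately numbered mouse, out of 10 mice per group. The vessels were sequenced whole, so fewer cells of a type and less of a miRNA per cell cannot be told apart.

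A miRNA is cut from a hairpin precursor into a 5p and a 3p strand, of which 1 usually persists as the guide while its partner, the passenger strand, is degraded. The guide recognises target messenger RNAs mainly through its seed, the bases 2 to 8 from the 5′ end. miR-181 miRNAs are known for their roles in lymphocyte development, and in endothelium miR-181b is known to dampen NF-kB signalling through importin-α3, a carrier that brings NF-kB into the nucleus. The family was examined here for how its members and arms compare and for how Ang II altered them.

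The guide strands are shown first because they share their seed, given in capitals, and differ only behind it. The mature sequences are from RefSeq (GRCm38.p6), read 5′ to 3′.
miR-181a-5p: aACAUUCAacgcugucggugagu
miR-181b-5p: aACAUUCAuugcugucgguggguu
miR-181c-5p: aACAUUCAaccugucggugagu
miR-181d-5p: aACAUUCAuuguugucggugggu

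The seed ACAUUCA occurred in 4 of the 1679 mature mouse miRNAs of that reference table, and these were the 4 guides above. Counted from the 5′ end of miR-181a-5p, miR-181b-5p carries A9U, C10U and A21G and has 1 further base at its 3′ end. miR-181d-5p carries A9U, C10U, C12U and A21G. miR-181c-5p lacks the G at position 11 (G11del) and has no other change from miR-181a-5p. With differences this small, a misassigned read could move between members, and the mapping rules that would decide this are not given in the sources used here.

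The partner strands fall into more than 1 seed group, and they are shown because the 2 that were abundant share 1 seed.
miR-181a-1-3p: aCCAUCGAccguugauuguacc
miR-181c-3p: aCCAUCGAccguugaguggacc
miR-181a-2-3p: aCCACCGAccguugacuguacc
miR-181d-3p: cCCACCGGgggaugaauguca
miR-181b-1-3p: cUCACUGAacaaugaaugcaa
miR-181b-2-3p: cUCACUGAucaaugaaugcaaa

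Counted from the 5′ end of miR-181a-1-3p, miR-181a-2-3p carries U5C, within the seed, and U16C. miR-181c-3p carries U16G and U19G, both outside it.

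The family is encoded by 6 hairpins in 3 pairs. On GRCm38, Mir181a-1 lies at chr1:137966455-137966541 and Mir181b-1 at chr1:137966639-137966718, both on the plus strand, 97 bp apart, in an exon of the long non-coding RNA A430106G13Rik. Mir181a-2 at chr2:38852735-38852810 and Mir181b-2 at chr2:38853830-38853918 are 1019 bp apart on the plus strand, opposite to an intron of Nr6a1, which encodes an orphan nuclear receptor. Mir181d at chr8:84178716-84178787 and Mir181c at chr8:84178873-84178961 are 85 bp apart on the minus strand, within an intron of Nanos3 and on its strand. The hairpins of miR-181a and miR-181b on chromosomes 1 and 2 give identical guides, so miR-181a-5p and miR-181b-5p cannot be assigned to a locus. Their repeated rows differed by at most 6 reads for miR-181a-5p and by at most 279 reads (0.961%) for miR-181b-5p in any library. The guides miR-181c-5p and miR-181d-5p each have 1 hairpin.

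Each library gave 11.4 to 18.8 M reads in distinct rows, and 3 reads, taken as the limit of detection, stood at 0.0888 to 0.351 RPM. This limit covers counting error only. A principal component analysis of the variation inside groups split the libraries into 2 classes along its leading axis (35.6% of that variance), called A (19 libraries) and B (13). The axis was computed from all 543 tested rows, the family's included. Class A took 5 libraries from each sham group, and 3 and 6 libraries from Ang II at 7 and 14 days. The scaled values of a library summed to 0.727 to 1.24 M in class A and to 1.15 to 1.67 M in class B. The classes therefore largely went with this sum, which depends on the authors' scaling. Values within a class are given where they turn or change a result.

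The family was dominated by a single guide. miR-181a-5p averaged 16938 ± 2489 RPM (SD, n = 32), the 11th highest of all distinct rows, and made up 90.0% ± 0.646 of the family's RPM (SD, n = 32). miR-181b-5p followed with 1033 ± 143 RPM and 5.51% of the family, miR-181c-5p with 669 ± 103 RPM and 3.58%, and miR-181d-5p with 116 ± 22.8 RPM and 0.624% (SD, n = 32 each). The family as a whole took 1.97% ± 0.474 of a library's reads (SD, n = 32), from 1.29% to 2.95%. A read covers a whole mature miRNA, so these levels need no scaling by length, but how well the library kit captures each sequence was not tested.

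The order of the guides was the same in 32 of 32 libraries. The closest neighbours were miR-181b-5p and miR-181c-5p, whose ratio within a library ran from 1.09 to 2.07 with a median of 1.53. Their RPM ranges overlapped between libraries, since the lowest miR-181b-5p value was 790.3 and the highest miR-181c-5p value 874.5. The ranges of the other neighbouring guides did not overlap. The steadiest pair was miR-181b-5p and miR-181a-5p, with a ratio between 0.0515 and 0.0697 in all libraries.

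**Figure D1:**
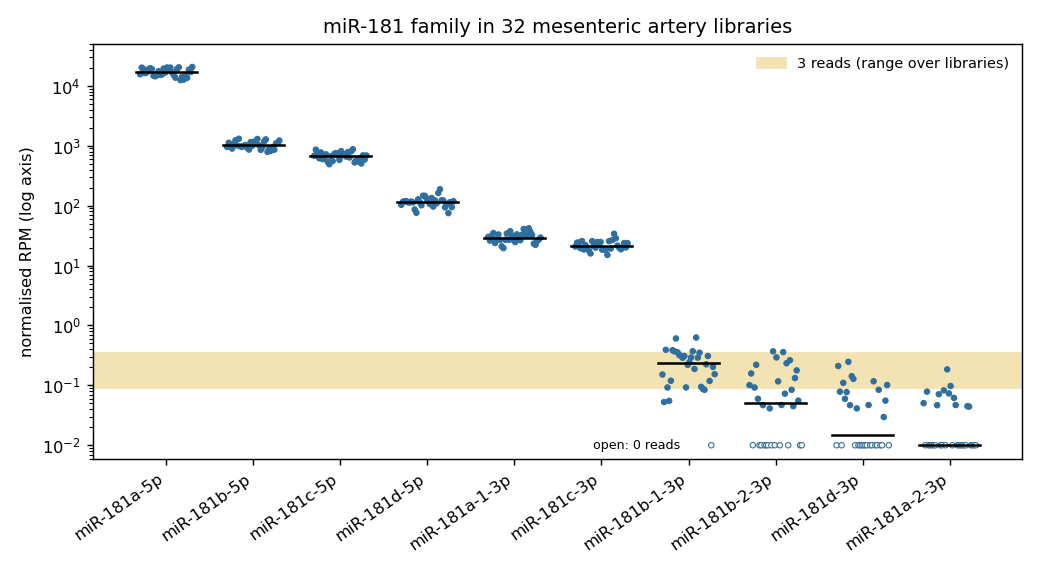
Normalised RPM (log axis) of the 10 miR-181 names; each point is 1 of the 32 libraries, the lines are medians, the shaded band is the range of 3 reads over libraries, and open points at the bottom had 0 reads. The 4 guides and 2 of the partner strands stand well above the band, while the other 4 partner strands lie in or near it.

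The partner strands were rare, together 0.282% ± 0.0645 of the family's RPM (SD, n = 32). miR-181a-1-3p averaged 29.6 ± 5.45 RPM and miR-181c-3p 21.8 ± 3.91 RPM (SD, n = 32 each). miR-181a-1-3p was the higher of the pair in 30 of 32 libraries, and their ranges overlapped.

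The partner strands of the paired loci differed widely in number. Over all libraries 15183 reads were counted for miR-181a-1-3p and 15 for miR-181a-2-3p, although both hairpins encode the same guide. miR-181b-1-3p was seen in 31 libraries, miR-181b-2-3p with 48 reads in 20 libraries and miR-181d-3p with 26 reads in 16 libraries. The latter 4 strands averaged 0.242 RPM or less, below 1 RPM in every group, and were too rare to be compared between groups.

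The arms were also unequal in different degrees. The guide miR-181a-5p exceeded miR-181a-1-3p by a median factor of 612 (297 to 820 over libraries). The guide miR-181c-5p exceeded its partner miR-181c-3p by a median factor of only 30.6 (18.4 to 44.3), and the ranges did not overlap. The miR-181a guide comes from 2 hairpins, and adding the 15 reads of miR-181a-2-3p to the partner side would leave this difference in place.

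The main question was how Ang II altered the family. At 14 days the guide miR-181c-5p fell, and it was the 1 member of the 6 tested that passed the test. Across all rows, 6.45% passed at 14 days in either direction while 2.03% passed as lower and 4.42% as higher. In the 14-day sham libraries miR-181c-5p ran from 638 through a median of 752 to 875 RPM, with a mean of 749 ± 83.1 (SD, n = 8). In the 14-day Ang II libraries it ran from 506 through a median of 580 to 692 RPM, with a mean of 592 ± 69.8 (SD, n = 8). All 8 Ang II libraries lay below the sham median and 6 lay below every sham library, while the other 2, at 688 and 692 RPM, overlapped with the low end of the sham group.

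The log2 fold change of miR-181c-5p was -0.34 ± 0.097 (SE), with a 95% interval from -0.54 to -0.14, equal to a 0.790-fold level. The adjusted p was 0.0368 (limma-trend on log2(RPM + 1), Benjamini-Hochberg over 543 rows, two-sided), and the row ranked 22nd by p. The adjusted p stood between 0.0275 and 0.0851 when single libraries were left out, and the call was kept in 8 of 16 such fits. Within class A the log2 fold change was -0.22 (adjusted p = 0.357), within class B -0.58 (adjusted p = 0.214) and among the mice whose numbers start with 26 it was -0.37 (adjusted p = 0.205).

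The other members did not pass the test at 14 days. miR-181a-5p ran from 13685 through 18783 to 20411 RPM in sham and from 12453 through 14363 to 20669 RPM with Ang II (lowest, median, highest). The groups overlapped over most of their range, with 7 of 8 Ang II libraries below the sham median and 1 above every sham library. Its log2 fold change was -0.23 ± 0.10 (SE, adjusted p = 0.170).

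miR-181b-5p, the member best known in endothelium, ran from 854 through 1127 to 1296 RPM in 14-day sham and from 790.3 through 913 to 1223 RPM with Ang II. With Ang II 7 of 8 libraries were under the sham median, with a log2 fold change of -0.20 (adjusted p = 0.199). miR-181d-5p, the neighbour of miR-181c-5p on chromosome 8, ran from 96.6 through 119.7 to 188 RPM in sham and from 75.0 through 110.5 to 123 RPM with Ang II, with a log2 fold change of -0.27 (adjusted p = 0.195). The 95% interval of that change ran from -0.55 to 0.004 and held the value of miR-181c-5p.

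The partner strands stood closer to 0. The log2 fold change was -0.09 for miR-181a-1-3p (adjusted p = 0.726) and 0.03 for miR-181c-3p (adjusted p = 0.889). miR-181c-3p lay above the sham median in 7 of 8 Ang II libraries, but no Ang II library lay above every sham library. The sign of both turned with the class: in class A and class B alone miR-181a-1-3p stood at -0.18 and 0.25, and miR-181c-3p at 0.22 and -0.19. The guides kept their sign in both classes, at -0.15 and -0.45 for miR-181a-5p, -0.14 and -0.38 for miR-181b-5p, and -0.17 and -0.34 for miR-181d-5p, and none passed there. Of the 6 members, 5 had a log2 fold change below 0, with a median of -0.21, against 49.9% below 0 and a median of 0.002 over all tested rows.

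**Figure D2:**
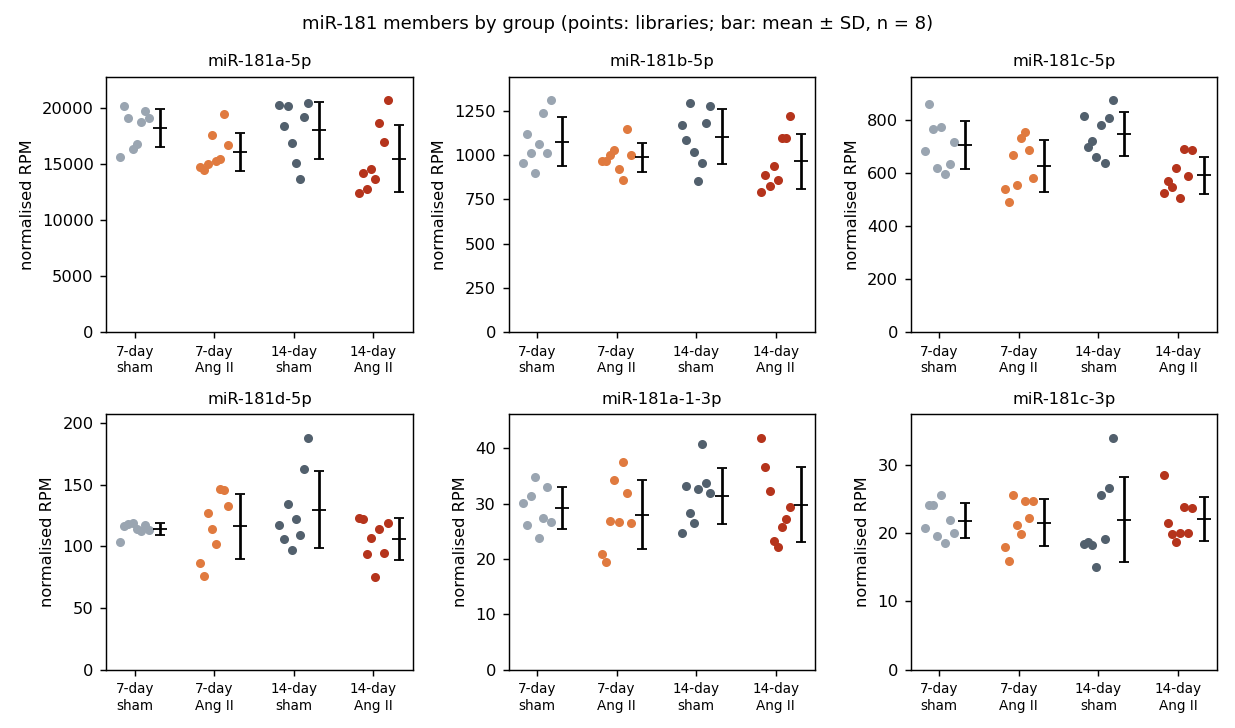
Normalised RPM of the 6 tested miR-181 members in the 4 groups; points are libraries and bars are the mean ± SD of 8 libraries, on axes that start at 0. The 14-day Ang II points of miR-181c-5p sit at 506 to 692 RPM against 638 to 875 in 14-day sham, and the 7-day sham points of miR-181d-5p are the tightest of its 4 groups.

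These differences are relative to the authors' scaling. When reads were divided by library totals alone, the median of all tested rows at 14 days was 0.23 on the log2 scale. On that scale the log2 fold change was -0.07 for miR-181c-5p (adjusted p = 0.837), 0.04 for miR-181a-5p, 0.07 for miR-181b-5p, 0.17 for miR-181a-1-3p and -0.003 for miR-181d-5p, so the sign turned for 3 members that did not pass the test in either case. Set against the median of all rows, miR-181c-5p stood at -0.30 by library totals and at -0.34 by the authors' scaling. The family's share of all reads was 2.01% ± 0.588 in 14-day sham and 2.07% ± 0.587 in 14-day Ang II (SD, n = 8 each).

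At 7 days no member of the 6 passed the test with limma, and 0 had an unadjusted p under 0.05. The edgeR, DESeq2 and limma-voom fits likewise called 0 of 6. Across all rows 0.184% passed at that time. All 6 log2 fold changes were below 0, with a median of -0.10, against 53.4% of all tested rows.

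miR-181c-5p ran from 598 through 701 to 861 RPM in 7-day sham and from 491 through 625 to 755 RPM with Ang II. The log2 fold change was -0.18 ± 0.097 (SE, adjusted p = 0.756), with 6 of 8 Ang II libraries below the sham median. miR-181a-5p averaged 18182 ± 1693 RPM in sham and 16077 ± 1702 RPM with Ang II (SD, n = 8 each), with 7 of 8 libraries below the sham median and 5 below every sham library. Its log2 fold change was -0.18 ± 0.10 (SE, adjusted p = 0.795). In class A and class B alone the 7-day log2 fold change was -0.32 and -0.06 for miR-181c-5p, and -0.28 and -0.13 for miR-181a-5p, and none passed.

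miR-181d-5p stood apart at 7 days by its spread. It ran from 103 to 119 RPM in 7-day sham, with a coefficient of variation of 4.32%, and from 76.1 to 146 RPM in 7-day Ang II, with 22.7%. In 14-day sham it ran from 96.6 to 188 RPM, so the narrow range belonged to 1 sham group and not to both. The 7-day Ang II libraries lay on both sides of the sham range, and the log2 fold change was -0.01 (adjusted p = 0.995). They were split by class: the 3 of class A, at 76.1 to 101 RPM, lay below every sham library, and 4 of the 5 of class B, at 127 to 146 RPM, above every sham library. The log2 fold change was -0.35 in class A alone (adjusted p = 0.244) and 0.17 in class B alone (adjusted p = 0.681), and the difference between classes was not tested. The classes were drawn from the same values, miR-181d-5p included, so they are not a separate grouping of the libraries.

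The difference between the Ang II effects at 14 and 7 days was tested directly. For miR-181c-5p it was -0.16 on the log2 scale (adjusted p = 0.831) and for miR-181d-5p -0.26 (adjusted p = 0.811), so the effects at the 2 times were not shown to differ. No family member passed, and limma called 0 of 543 rows (0%), with 25 at an unadjusted p under 0.05, while edgeR and DESeq2 also called 0. Between 14-day and 7-day sham no member passed either, with log2 differences between -0.03 and 0.15. That comparison had 0 of 543 rows called by limma (0%), 18 at an unadjusted p under 0.05, and 1 each by edgeR and DESeq2. All libraries of mice numbered from 26 were 14-day libraries, and those numbered from 30 were all 14-day Ang II. The mouse-number series thus partly went with time, and their parts in these comparisons cannot be fully told apart.

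Averaged over both times, miR-181c-5p was again lower with Ang II, at a log2 fold change of -0.26 ± 0.069 (SE, 95% interval -0.40 to -0.12, limma adjusted p = 0.0182). It was the 1 member of 6 called, beside 7.37% of all rows called in either direction, 2.03% as lower and 5.34% as higher. This average uses the libraries of both single-time comparisons and is not separate from them. Leaving out each of the 32 libraries in turn kept the call every time, while scaling by library totals alone ended it (-0.10, adjusted p = 0.727). In the same average limma called 1 of 4 smooth muscle markers, miR-145a-3p at -0.36 (adjusted p = 0.0138). It called 1 of 6 epithelial markers, miR-203-3p at -0.33 (adjusted p = 0.0244), while edgeR called 1, DESeq2 2 and limma-voom 0. Of 5 leukocyte markers limma called 1, miR-511-3p at 0.31 (adjusted p = 0.0207), while edgeR and DESeq2 each called 3 and limma-voom 1. Above 0 lay 1 of the 4, 0 of the 6 and 4 of the 5. All 4 red blood cell markers lay above 0, with a median of 0.73. Of these limma called 0, edgeR 1, DESeq2 2 and limma-voom 1. miR-145a-3p stood at -0.60 at 7 days and -0.12 at 14 days, and at -0.56 between 14-day and 7-day sham. The part of these markers in the averaged result was not tested. miR-181a-5p was next at -0.20 (adjusted p = 0.0826), followed by miR-181b-5p at -0.16 (adjusted p = 0.152) and miR-181d-5p at -0.14 (adjusted p = 0.344).

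**Figure D3:**
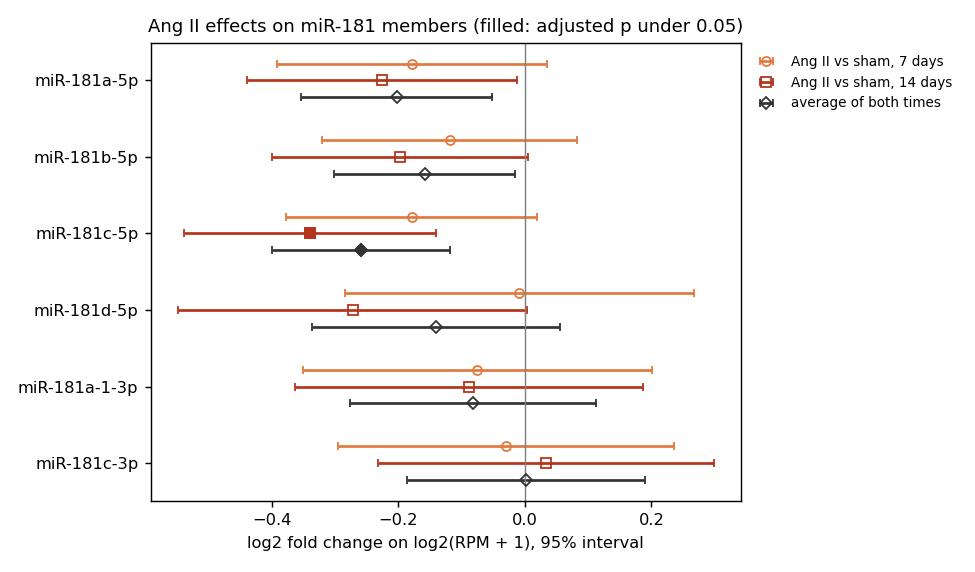
Log2 fold change of Ang II over sham with its 95% interval for the 6 tested members, at 7 days, at 14 days and averaged; filled symbols passed an adjusted p under 0.05. The filled symbols are those of miR-181c-5p at 14 days (-0.34) and averaged (-0.26).

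Ratios within a library do not depend on its scaling. For the 7 pairs of arms or members compared at each time, the log2 ratios were tested by exact two-sided permutation of 8 against 8 libraries, with adjustment over 14 tests, and 0 passed. The ratio of miR-181c-5p to its own partner miR-181c-3p had the smallest p. It ran from 25.7 through a median of 35.2 to 44.3 in 14-day sham and from 18.4 through 28.3 to 33.1 in 14-day Ang II. All 8 Ang II libraries lay below the sham median, and the groups overlapped.

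The mean log2 ratio of miR-181c-5p to miR-181c-3p differed by -0.38 (Ang II minus sham) at 14 days (exact permutation p = 0.0110, adjusted p = 0.154). In class A alone the difference was -0.45, and in class B alone -0.38. With single libraries left out, the difference ran from -0.44 to -0.30 and the adjusted p from 0.0283 to 0.331 (exact permutation). The lowest adjusted p, which passed, came without replicate 8 of the 14-day sham group, where the difference was -0.44. At 7 days the difference was -0.15 (exact permutation p = 0.0850, adjusted p = 0.465). The ratio of the guide miR-181a-5p to miR-181a-1-3p differed by -0.13 at 14 days (exact permutation p = 0.547, adjusted p = 0.701), with 0.04 in class A alone and -0.70 in class B alone. Class B held 3 sham and 2 Ang II libraries at that time. The ratio of miR-181c-3p to miR-181a-1-3p differed by 0.13 (exact permutation p = 0.421, adjusted p = 0.701), and its sign also turned with the class, at 0.42 in A and -0.46 in B.

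Among guides, the ratio of miR-181c-5p to miR-181a-5p differed by -0.11 at 14 days (exact permutation p = 0.166, adjusted p = 0.465). That of miR-181b-5p to miR-181a-5p differed by 0.03 (exact permutation p = 0.482, adjusted p = 0.701) and that of miR-181c-5p to miR-181d-5p by -0.07 (exact permutation p = 0.550, adjusted p = 0.701). A stronger fall of miR-181c-5p with Ang II than of miR-181a-5p or miR-181d-5p was therefore not shown by these tests. Its ratio to miR-181b-5p was not among the pairs compared.

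**Figure D4:**
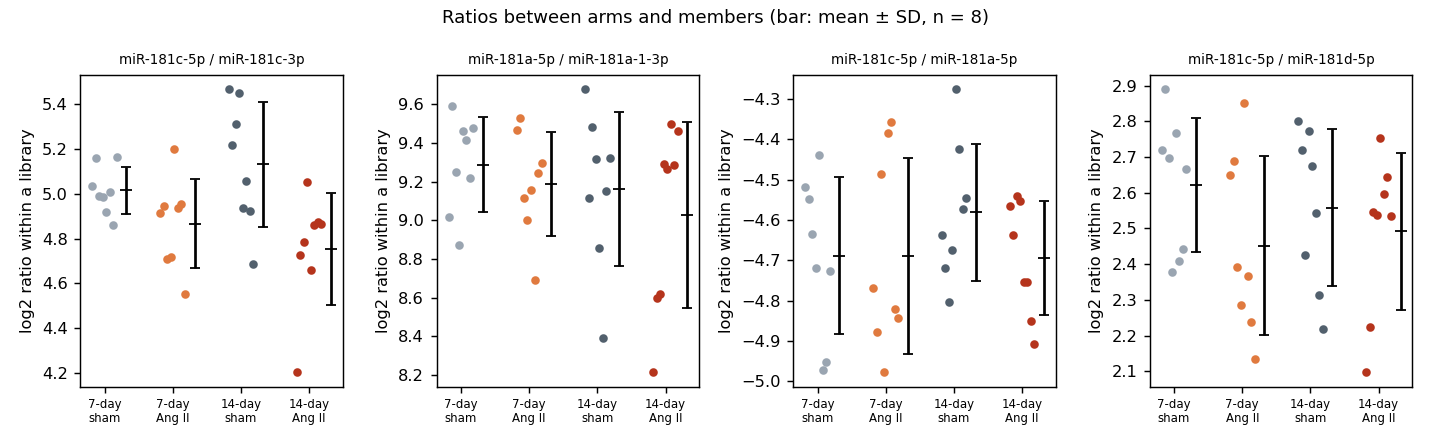
Log2 ratios within a library for 4 of the pairs compared, by group; points are libraries and bars are the mean ± SD of 8 libraries, on axes that do not start at 0. The mean log2 ratio of miR-181c-5p to miR-181c-3p is 5.13 in 14-day sham and 4.75 in 14-day Ang II.

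The members were also compared in how they varied between libraries of a group, with group means removed and each class taken alone. Pearson's r and Spearman's rho were computed for 15 pairs in each class, with p-values from 100000 permutations adjusted over 30 tests. The permutations ran freely over the libraries of a class and took no account of the group means removed. The p-values are therefore too small, and pairs near the threshold might not pass otherwise. miR-181a-5p and miR-181b-5p, which share their loci, varied together, with r = 0.896 and rho = 0.889 in class A (19 libraries, adjusted p = 0.0003 for each; the raw p of 1e-05 is the smallest the permutations can give). In class B they gave r = 0.908 and rho = 0.923 (13 libraries, permutation, adjusted p = 0.0003 and 0.00045). Without the 2 libraries farthest from the median r was 0.871 and 0.853.

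The neighbours miR-181c-5p and miR-181d-5p gave r = 0.736 and rho = 0.768 in class A (permutation, adjusted p = 0.0024 and 0.0021; r = 0.734 without the 2 farthest). In class B they gave r = 0.555 and rho = 0.577 (permutation, adjusted p = 0.143 for each; r = 0.588 without the 2 farthest). miR-181c-5p and miR-181c-3p, the arms of 1 hairpin, gave r = 0.710 and rho = 0.677 in class A (permutation, adjusted p = 0.0078 and 0.0165; r = 0.654 without the 2 farthest). In class B they gave r = 0.394 and rho = 0.401 (permutation, adjusted p = 0.365 and 0.401; r = 0.273 without the 2 farthest). Pairs from different loci passed in class A as well: miR-181a-5p with miR-181d-5p at r = 0.625 and rho = 0.644 (permutation, adjusted p = 0.0268 and 0.0222), miR-181b-5p with miR-181d-5p at r = 0.604 and rho = 0.598 (permutation, adjusted p = 0.0300 and 0.0331), and miR-181a-5p with miR-181c-5p at r = 0.596 and rho = 0.604 (permutation, adjusted p = 0.0302 and 0.0331). Without the 2 farthest libraries r was 0.715, 0.538 and 0.565, and none of these 3 pairs passed in class B. These 3 pairs stood near the threshold in class A, so the limit of the permutations applies to them. The remaining guide pair, miR-181b-5p with miR-181c-5p, did not pass in class A (r = 0.342, rho = 0.347, permutation, adjusted p = 0.348 and 0.376). From the chromosome 8 locus, miR-181c-3p with miR-181d-5p passed there by rho alone (r = 0.536, rho = 0.568, permutation, adjusted p = 0.065 and 0.047). Neither passed in class B. The arms miR-181a-5p and miR-181a-1-3p did not pass, with r = -0.258 and rho = -0.121 in class A (permutation, adjusted p = 0.517 and 0.811; r = 0.256 without the 2 farthest).

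The rows outside the family that varied most like miR-181a-5p, by Pearson r over the 32 libraries with group means removed, were miR-1247-5p, Novel_x_30, let-7e-5p, miR-676-3p and Novel_y_16. Their r within class A ran from 0.686 to 0.840 and within class B from 0.645 to 0.876. The rows most like miR-181c-5p were miR-141-5p, miR-200a-3p, miR-200c-3p, miR-200a-5p and miR-31-5p. Of these, 4 belong to the miR-200 and miR-141 group, which is known for its high level in epithelium. Their r with miR-181c-5p ran from 0.652 to 0.757 in class A and from 0.191 to 0.415 in class B. The points share their libraries and scaling, and these values are given as descriptions.

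**Figure D5:**
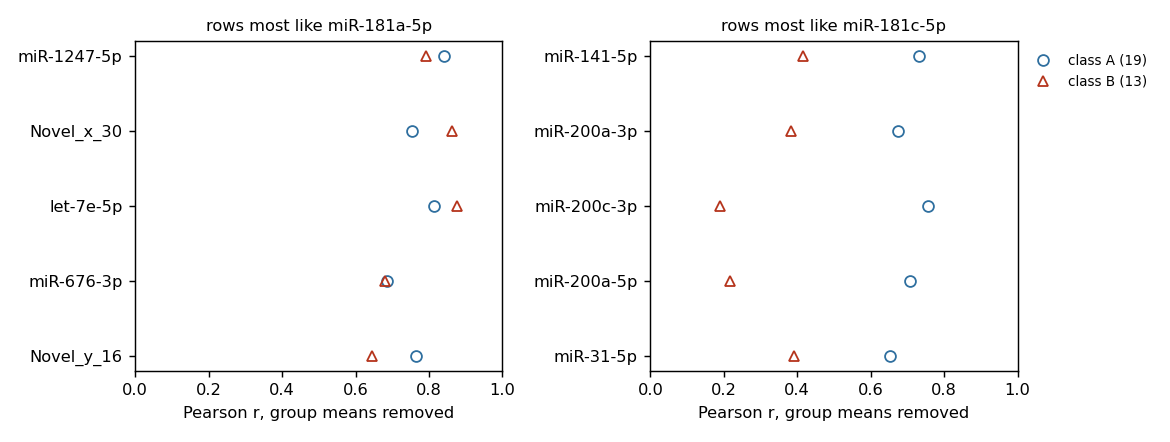
Pearson r, with group means removed, of the 5 rows outside the family that varied most like miR-181a-5p (left) and miR-181c-5p (right); circles are the 19 libraries of class A and triangles the 13 of class B. The rows on the left keep an r of at least 0.645 in both classes, while those on the right reach 0.652 to 0.757 in class A and 0.415 at most in class B.

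Markers of other cells also moved at 14 days. The summed level of 6 epithelial miRNAs, none of them at 0, ran from 1333 through a median of 2530 to 4996 RPM in 14-day sham and from 1117 through 1321 to 1747 RPM with Ang II. All 8 Ang II libraries lay below the sham median and 5 sham libraries above every Ang II library, the same direction as miR-181c-5p. Of the 6, 1 passed as lower (miR-203-3p, log2 fold change -0.52, adjusted p = 0.0174), with a median of -0.71, while edgeR called 4, DESeq2 5 and limma-voom 0. Over all 543 rows limma called 35 at 14 days, edgeR 55, DESeq2 61 and limma-voom 15. The part of the epithelial miRNAs in the miR-181c-5p result was not tested.

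The 4 miRNAs of red blood cells all lay above 0 at 14 days, and all 4 had an unadjusted limma p under 0.05. Of these, 2 passed with limma, miR-451a at 0.99 and miR-144-5p at 1.16 on the log2 scale (adjusted p = 0.0296 and 0.0493). DESeq2 called the same 2, limma-voom called miR-451a alone and edgeR called 0. miR-144-3p rose slightly more than miR-451a but did not pass (limma adjusted p = 0.0698). The summed level of all 4 had a median of 13413 RPM in sham (5948 to 50259) and 25574 RPM with Ang II (14971 to 53130). This sum was mostly miR-486-5p, at a mean of 24060 RPM over all libraries, which did not pass (0.81, limma adjusted p = 0.164). The 2 arms of miR-126, which mark endothelium, summed to a median of 25353 RPM in sham (16900 to 35282) and 16372 RPM with Ang II (12975 to 25109), and 0 of 2 passed with limma, edgeR or DESeq2, with 1 at an unadjusted p under 0.05. That sum was mostly miR-126-5p, at a mean of 20260 RPM over all libraries against 1878 RPM for miR-126-3p. The log2 fold changes of these arms were -0.53 and -0.12. The 5 leukocyte miRNAs summed to a median of 681 RPM in sham (525 to 993) and 949 RPM with Ang II (588 to 1320), and 0 of 5 passed, although 3 had an unadjusted p under 0.05 and the same number of calls, 0, came from edgeR and DESeq2. The largest part of the leukocyte sum was miR-142-5p, at a mean of 666 RPM over all libraries. The part of these markers in the family's values was not tested either.

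Of the smooth muscle markers 0 of 4 passed at 14 days, with a median log2 fold change of -0.07, and all lay above 1 RPM. At 7 days 1 of the 4, miR-145a-3p, was lower (-0.60, adjusted p = 0.0280) with limma, edgeR, DESeq2 and limma-voom, the 1 row of all 543 that limma called then. The skeletal muscle miRNA miR-206-3p was below 1 RPM in all groups. No marker of neurons (0 of 3), pancreas (0 of 3) or striated muscle (0 of 2 tested) passed at 14 days, and for these lists and smooth muscle 0 had an unadjusted limma p under 0.05 and 0 were called by edgeR or DESeq2. Above 0 lay 2 of 3 neuron, 0 of 3 pancreas and 0 of 2 striated muscle markers. The pancreas markers had a median log2 fold change of -0.395. Their summed level had a median of 3441 RPM in 14-day sham (1856 to 7942) and 2366 RPM with Ang II (1812 to 3284). This sum was mostly miR-375-3p, and its part in the family's values was not tested.

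Other miRNAs known from vascular inflammation and NF-kB signalling were compared as a list of 16, all tested, that shares miR-126 with the endothelial, miR-223-3p with the leukocyte and miR-9-5p with the neuron markers. At 14 days 0 of 16 passed with limma, edgeR or DESeq2, 2 had an unadjusted limma p under 0.05, and 9 of 16 lay above 0 with a median of 0.03. The 3 with the smallest p were miR-126-5p at -0.53 (adjusted p = 0.0901), miR-155-5p, a miRNA induced in activated immune cells, at 0.35 (adjusted p = 0.168) and miR-10a-5p at -0.41 (adjusted p = 0.210). At 7 days 0 of 16 passed with the same tools, with 1 at an unadjusted limma p under 0.05. In the average over both times 1 of 16 passed with limma, beside 7.37% of all rows. It was miR-21a-5p, known from fibrosis and vessel remodelling, at 0.49 (adjusted p = 0.0342).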

How the data were processed

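The authors deposited 1 table with 1 signal value per miRNA row and library. The tools listed in the submitters' processing notes are STAR 2.3.1, edgeR 3.6.8, R 3.2.3, FastQC and bcl2fastq 1.8.4, with the build mm10. The role of each, the annotation used and the handling of multi-mapping reads are not given in the sources used here. Every value (100%, tolerance 0.001 read) was a whole number of reads times a step of its library, so reads were recovered. Column totals ran from 0.727 to 1.67 M (mega), so the deposited signal was scaled by more than library totals. It is called RPM here.

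Rows that were 0 throughout were dropped and repeated names reduced to the row with the highest mean. limma-trend (limma 3.58.1, R 4.3.3) was fitted to log2(RPM + 1) with the 4 groups, over rows averaging 1 RPM or more. The two-sided p-values were adjusted by the Benjamini-Hochberg method and called under 0.05. Fold changes on this scale understate changes of rare miRNAs. On recovered reads at 14 days, edgeR 4.0.16 called 55 and DESeq2 1.42.0 called 61 rows, against 35 with limma. The design allowed for either counts or normalised values, and the fit for normalised values was used.

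Every family row is named. Likeness named the 5 rows of highest r for the most abundant member and for each member called, and the inflammation list the 3 of smallest p at 14 days. The members and lists were chosen with earlier results of these data known. Alternatives were other scalings, filters, pseudocounts, tests and covariates, subsets of libraries, and each library left out. The pipeline was tested on simulated data.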

Additional observations from a re-analysis of the deposited data

Results flagged for a closer look

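miR-181d-5p in replicate 1 of the 7-day sham group, at 103.4 RPM, was far from the other 7 libraries of its group. The next lowest stood at 112.6 RPM, and the gap was 0.591 of the group's range, above the critical value of Dixon's test for 8 libraries. It was the 1 flag among 52 groups of 8 values examined, and chance flags about 1 in 20. The whole range of that group was narrow, up to 119 RPM.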

How the results depend on the processing

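The family count at 14 days, 1 member called, became 0 with library totals alone, with no filter (miR-181c-5p adjusted p = 0.0625), with limma-voom and quality weights (-0.27, adjusted p = 0.136), with the compared groups alone (adjusted p = 0.0778), in class A alone, in class B alone and in the mice numbered from 26. It became 2 with the mouse-number series as a term, which added miR-181a-5p (-0.31, adjusted p = 0.0379). Leaving out single libraries gave 0 to 1, with the call lost without replicates 1, 5, 7 or 8 of sham and 1, 3, 5 or 7 of Ang II. miR-181c-5p was called in 10 of 17 other settings.

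The averaged count of 1 became 0 with library totals (-0.10, adjusted p = 0.727), 2 with DESeq2 (miR-181a-5p added, adjusted p = 0.0439), 2 with class as a term (miR-181a-5p, adjusted p = 0.0408) and 3 with the series term (miR-181a-5p, adjusted p = 0.0180, and miR-181b-5p, adjusted p = 0.0474). Leaving out libraries gave 1 to 2, with miR-181a-5p added without replicate 6 of 14-day sham or replicate 8 of 14-day Ang II. The ratio count of 0 ranged from 0 to 1. The causes were not tested. No called value changed sign. For single members, 38 of 462 values changed sign in the other settings and 46 of 672 values, of 9 results, when a library was left out, and these were called in neither fit. The values of the ratios within a class were chosen after seeing the data.

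Over all rows, the 14-day count of 35 was 55 with edgeR, 61 with DESeq2, 23 with library totals, 17 with no filter, 15 with limma-voom, 3 with the compared groups alone, 80 with class as a term, 0 in class A alone, 2 in class B alone and 0 in the mice numbered from 26. Library totals gave 22 higher and 1 lower, against 24 and 11. The averaged count of 40 was 64 with DESeq2, 129 with class as a term and 23 with library totals. No paired analysis was possible because the replicate numbers only name samples in accession order. The 4 partner strands below 1 RPM were limited by depth.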
